A study of Mus musculus with 8 samples.

Results

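The miR-200 family and the cluster of miR-183, miR-96 and miR-182 were followed in mouse liver during fibrosis introduced by CCL4. The 8 miRNAs were taken by name from the 567 mouse miRNAs on the array. They were mmu-miR-200a, mmu-miR-141, mmu-miR-200b, mmu-miR-200c and mmu-miR-429 of the family and mmu-miR-183, mmu-miR-96 and mmu-miR-182 of the cluster. No cutoff on a measured value was used, but earlier results of these data were known when they were chosen. The mice were male C57BL/6J animals, 8 weeks old at the start, that received intra-peritoneal CCL4 (carbon tetrachloride, a liver toxin) in olive oil or olive oil alone, and all groups therefore received the oil. Livers were collected at 4, 6 or 8 weeks. The CCL4 livers gave 5 arrays (1, 2 and 2 at the successive times), and the olive oil livers gave 3, a single array at each time. Each array measured total RNA of whole liver labelled with a single dye. Whether animals were pooled on an array is not stated in the sources used here. Therefore n is the number of arrays, and p-values measure the spread between these arrays, which may in part be technical.

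A miRNA is a short RNA that guides silencing proteins to messenger RNAs, mainly through its seed, the bases 2 to 8 counted from the 5′ end. The miR-200 family is enriched in epithelial cells and is known to repress ZEB1 and ZEB2, transcription factors that shut down E-cadherin. In the liver, epithelial miRNAs of this kind are associated with bile duct cells, which are a minority of the tissue. The cluster of miR-183, miR-96 and miR-182 is best known from sensory organs such as the retina and inner ear, and is also found in epithelia. In whole tissue, fewer cells of a type and less RNA per cell cannot be told apart.

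The mature sequences are shown because they set which messenger RNAs each miRNA can pair with and how closely the probes of the family resemble each other. They are RefSeq sequences of build GRCm38.p6, found for 8 of the 8 miRNAs, written 5′ to 3′ with the seed in capitals.
mmu-miR-200b: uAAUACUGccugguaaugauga
mmu-miR-200c: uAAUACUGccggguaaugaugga
mmu-miR-429: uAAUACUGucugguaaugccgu
mmu-miR-200a: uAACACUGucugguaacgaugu
mmu-miR-141: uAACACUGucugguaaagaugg
mmu-miR-183: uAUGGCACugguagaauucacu
mmu-miR-96: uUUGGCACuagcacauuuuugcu
mmu-miR-182: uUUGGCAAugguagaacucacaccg
The family thus held 2 seeds. The seed AAUACUG was shared by mmu-miR-200b, mmu-miR-200c and mmu-miR-429, and AACACUG by mmu-miR-200a and mmu-miR-141, and these seeds differ at 1 base. In the cluster the seed of mmu-miR-96 differs at 1 base from that of mmu-miR-183 and at 1 base from that of mmu-miR-182. Over their whole length, mmu-miR-200b and mmu-miR-200c differ at 2 of the 22 bases compared, mmu-miR-200a and mmu-miR-141 at 2 of 22, and mmu-miR-200b and mmu-miR-429 at 4 of 22.

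The genes lie at 3 places, all on the minus strand per RefSeq, and the coordinates given are those of the array's own annotation on mm9, where each probe target lies. On chromosome 4, mmu-miR-200b (chr4:155429794-155429810), mmu-miR-200a (chr4:155429020-155429037) and mmu-miR-429 (chr4:155428025-155428043) lie together, with starts 774 bp apart for the first pair and 995 bp for the second. On chromosome 6, mmu-miR-200c (chr6:124668342-124668357) and mmu-miR-141 (chr6:124667935-124667951) start 407 bp apart. Elsewhere on chromosome 6, mmu-miR-183 (chr6:30119711-30119729) and mmu-miR-96 (chr6:30119506-30119527) start 205 bp apart, and mmu-miR-182 (chr6:30115962-30115977) starts 3544 bp from mmu-miR-96. No gene annotation of mm9 was used here, so overlap with host genes was not looked up.

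Of the 567 mouse miRNAs, the software called between 117 and 158 detected on an array, and 113 were detected on all 8 arrays. Signals are in scanner units after background subtraction, summed over the probes of a miRNA, and carry the software's own error. The 75th percentile of the signals was 6.53 to 11.01 with CCL4 and 4.71 to 6.48 with olive oil. By this measure CCL4 arrays were brighter. Levels were therefore also given as scaled levels, the log2 of the signal over that percentile of its array. On the olive oil arrays this divisor lay below the lowest detected signal, at 5.11 against 7.12, 4.71 against 6.26 and 6.48 against 7.80. On each CCL4 array it lay above the lowest detected signal. With olive oil the divisor was thus a signal in the undetected range. The percentile over the 113 was run as an alternative. The liver label was borne out by mmu-miR-122, the dominant miRNA of hepatocytes, with a signal of 18497 to 35101 on the 8 arrays. Saturated spots were not found.

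Detection split the 8 miRNAs. The first 2 genes of the chromosome 4 group, mmu-miR-200b and mmu-miR-200a, were called detected on 8 of 8 arrays. In the cluster mmu-miR-96 was called on 5 of 5 CCL4 arrays and on 1 of 3 olive oil arrays, that of 8 weeks. The other 5, mmu-miR-429, mmu-miR-141, mmu-miR-200c, mmu-miR-182 and mmu-miR-183, were called on no array. The 5 opposite strands on the array (mmu-miR-141*, mmu-miR-183*, mmu-miR-200a*, mmu-miR-200b* and mmu-miR-200c*) were not called on any array either, and their signals ran from -10.5 to 0.97.

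The calls followed from the probes. Each miRNA had 2 probes of neighbouring length with 10 spots each, and the software's call could be recovered in 4536 of 4536 cases by asking whether at least 1 probe exceeded 3 times its own error. For mmu-miR-200a and mmu-miR-200b the longer probe alone passed, at 3.17 to 7.35 and 3.33 to 7.41 errors, and the shorter probe stayed at 2.94 and 1.79 errors or below. For mmu-miR-96 the longer probe reached 4.20 to 5.57 errors on the CCL4 arrays, and the shorter probe passed on 2 of them. Its only call on an olive oil array, at 8 weeks, rested on a longer probe at 3.001 errors, whereas the arrays of 4 and 6 weeks had 2.23 and 1.55. The level of mmu-miR-96 in olive oil livers is thus at the limit of detection.

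The signal of mmu-miR-200b was 22.3 at 4 weeks, 12.8 and 18.7 at 6 weeks and 29.8 and 21.9 at 8 weeks on the CCL4 arrays. On the olive oil arrays it was 9.39, 7.64 and 11.7 at 4, 6 and 8 weeks. The CCL4 values all exceeded the olive oil values. After scaling the groups still did not overlap, with log2 levels of 0.97 to 1.43 in CCL4 and 0.70 to 0.88 in olive oil. The mean scaled level was 1.25 ± 0.18 (SD, n = 5) with CCL4 and 0.81 ± 0.10 (SD, n = 3) with olive oil. Over all weeks the scaled level was higher with CCL4 than with olive oil by 0.45 on the log2 scale (SE 0.15). This is 1.36-fold, with an adjusted p of 0.0291 by limma. The 95% interval of the difference ran from 0.12 to 0.78. CCL4 was higher than its time-matched control on 5 of 5 arrays, and the exact permutation test over the 56 assignments of arrays, two-sided, gave p = 0.0179, the smallest it can give. These assignments exchange arrays across weeks; within weeks only 18 are possible, with a smallest p of 0.0556, so such a test could not pass the threshold and was not run. This call was lost in 14 of 27 alternatives, all of which kept the direction. However, some alternatives change only the test and not the difference, and some repeat one another. It was lost on leaving out any array other than CCL4 6 weeks replicate 1, with adjusted p of 0.0339 to 0.149 over the 8 arrays left out, and also with the longer probe alone (0.35, adjusted p = 0.0791).

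The signal of mmu-miR-200a, the neighbour with the other seed, was 22.6 at 4 weeks, 11.9 and 18.9 at 6 weeks and 32.4 and 25.4 at 8 weeks with CCL4. With olive oil it was 10.2, 9.42 and 14.3. The lower CCL4 array of 6 weeks lay below the olive oil array of 8 weeks, so the groups overlapped, and the same held after scaling. The mean scaled level was 1.31 ± 0.28 (SD, n = 5) against 1.05 ± 0.08 (SD, n = 3). The difference between treatments over all weeks was 0.25 (SE 0.16, adjusted p = 0.192 by limma) with a 95% interval from -0.10 to 0.61. It did not pass the threshold, and the exact permutation test gave p = 0.179. CCL4 was higher than olive oil of the same week on 4 of 5 arrays. The call was gained in 4 of 27 alternatives, and the largest of these differences was 0.92 (adjusted p = 0.00617) with no scaling between arrays.

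The third gene of that group, mmu-miR-429, was positive on all 8 arrays but not called. Its signal was 9.18 at 4 weeks, 6.34 and 7.19 at 6 weeks and 12.1 and 10.2 at 8 weeks with CCL4, and 4.25, 3.96 and 5.75 with olive oil. The errors of these signals were 2.72 to 4.36 with CCL4 and 2.91 to 3.47 with olive oil. Every CCL4 value was above every olive oil value, the nearest pair being 6.34 and 5.75, which differ by less than their errors. Neither probe reached 3 errors on any array, the closest being 2.80 for the longer probe on the CCL4 array of 4 weeks. With the limit set on the summed signal in place of the single probes, mmu-miR-429 passed on 2 of 5 CCL4 arrays, at 3.37 and 3.59 errors, and on 0 of 3 olive oil arrays. The same limit left mmu-miR-200a on 7 arrays (2 of 3 with olive oil) and mmu-miR-200b on 6 (1 of 3 with olive oil). Since it was below detection in both groups, no fold change is given and it was not tested.

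The genes of the other family locus stood at the background. The signal of mmu-miR-200c ran from -3.75 to 2.01 with CCL4 and from -2.70 to -1.50 with olive oil, at -0.87 to 0.61 errors. That of mmu-miR-141 ran from -0.98 to 4.51 and from -0.95 to 0.82. The highest signals of both were on CCL4 8 weeks replicate 1, which was also the brightest array for mmu-miR-200a and mmu-miR-200b, and there the longer probe of mmu-miR-141 reached 2.42 errors. These near copies were undetected on the arrays that detected mmu-miR-200b and mmu-miR-200a, from which they differ at 2 bases each. The reverse, binding of mmu-miR-200b or mmu-miR-200a to probes of other members such as mmu-miR-429, was not tested.

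In the cluster, the signal of mmu-miR-96 was 15.96 at 4 weeks, 15.5 and 14.8 at 6 weeks and 24.6 and 25.8 at 8 weeks with CCL4. With olive oil it was 8.04, 5.09 and 10.7, of which only the last was called detected. The groups did not overlap, neither in signal nor, narrowly, after scaling, where the lowest CCL4 level was 0.75 and the highest olive oil level 0.72. The mean scaled level was 1.14 ± 0.31 (SD, n = 5) with CCL4 and 0.50 ± 0.34 (SD, n = 3) with olive oil. Over all weeks the fitted difference between treatments was 0.62 on the log2 scale (SE 0.19, adjusted p = 0.0232 by limma), with a 95% interval from 0.20 to 1.04. Since only 1 of 3 olive oil arrays measured it above the limit, no exact fold is given, and with values under the lowest detected signal of an array raised to that signal the difference was 0.51 (adjusted p = 0.0260). CCL4 was higher than olive oil of the same week on 5 of 5 arrays, and the exact permutation test gave p = 0.0357, next to the smallest it can give. The call was lost in 12 of 26 alternatives with the direction kept. However, some alternatives change only the test and not the difference, and some repeat one another. It was lost on leaving out CCL4 6 weeks replicate 1, CCL4 8 weeks replicate 2, olive oil 8 weeks or olive oil 6 weeks, with adjusted p of 0.0568, 0.0583, 0.0553 and 0.214. Without olive oil 6 weeks, the dimmest array for mmu-miR-96, the difference was 0.41, and without the array of 4 weeks of either treatment it was 0.82 (adjusted p = 0.00298).

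The cluster mates did not share the level of mmu-miR-96. The signal of mmu-miR-182 was below 0 on all 8 arrays, from -3.76 to -0.27. That of mmu-miR-183 ran from -0.39 to 4.96 with CCL4 and from -0.92 to 0.99 with olive oil, and its highest value, on CCL4 8 weeks replicate 1, was 1.502 errors above 0. An undetected miRNA here is one below the limit of these probes, not one shown to be absent.

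**Figure D1:**
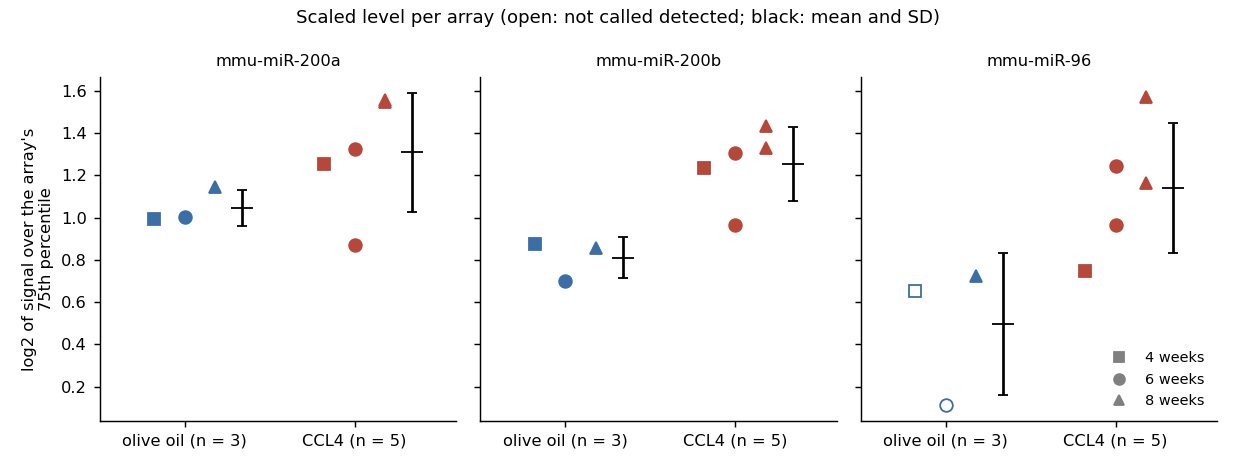
Log2 of the signal over the array's 75th percentile (vertical axis) for the 3 miRNAs tested, by treatment (horizontal axis), with symbols for the week, open points not called detected, and the mean and SD in black. The CCL4 points of mmu-miR-200b lie between 0.97 and 1.43, above the olive oil points, while those of mmu-miR-200a overlap with olive oil.

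Only mmu-miR-200a, mmu-miR-200b and mmu-miR-96 met the filter of detection on at least 3 arrays and were among the 133 miRNAs tested. Of these 3, 2 were called higher, beside 18 of the 133 (13.5%), and 47 of the 133 were called lower. Groups did not overlap, with CCL4 above, for 2 of the 3 after scaling, beside 9.02% of the 133, and for 2 of the 3 in unscaled signal, beside 14.3%. These counts are no support for the families as wholes, since the 5 undetected members are not in them and mmu-miR-96 met the filter only through the CCL4 arrays where it is high. In addition, mmu-miR-200a and mmu-miR-200b are among the miRNAs that the study picked from these same arrays, so their direction here is not independent evidence.

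The differences must be read against the shift of all miRNAs, which the scaling sets. The median difference of the 113 miRNAs detected on all arrays was -0.36 after scaling and 0.31 without scaling, a shift of 0.67 on the log2 scale. Relative to that median, mmu-miR-200a stood 0.61 higher and mmu-miR-200b 0.80 higher. These distances are the same without scaling by arithmetic, since a divisor per array moves all miRNAs alike, which is no support. By size of the scaled difference, mmu-miR-200a and mmu-miR-200b ranked 24 and 18 from the top of the 133. The measured values of mmu-miR-96 gave 0.98, and 0.87 with values under the lowest detected signal of an array raised to that signal. For mmu-miR-96 this changed only the olive oil array of 6 weeks, since its undetected value at 4 weeks lay above that limit. Without scaling 3 of the 3 were called higher, at 1.90-fold and 2.17-fold for mmu-miR-200a and mmu-miR-200b, beside 34 of the 133 (25.6%), and 0 of the 133 were called lower. Quantile normalization placed mmu-miR-200a, mmu-miR-200b and mmu-miR-96 0.25, 0.44 and 0.68 above the median. A normexp background correction with an offset of 50, which is large beside these signals, left them 0.04, 0.05 and 0.06 above it, with none of the 3 called.

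**Figure D2:**
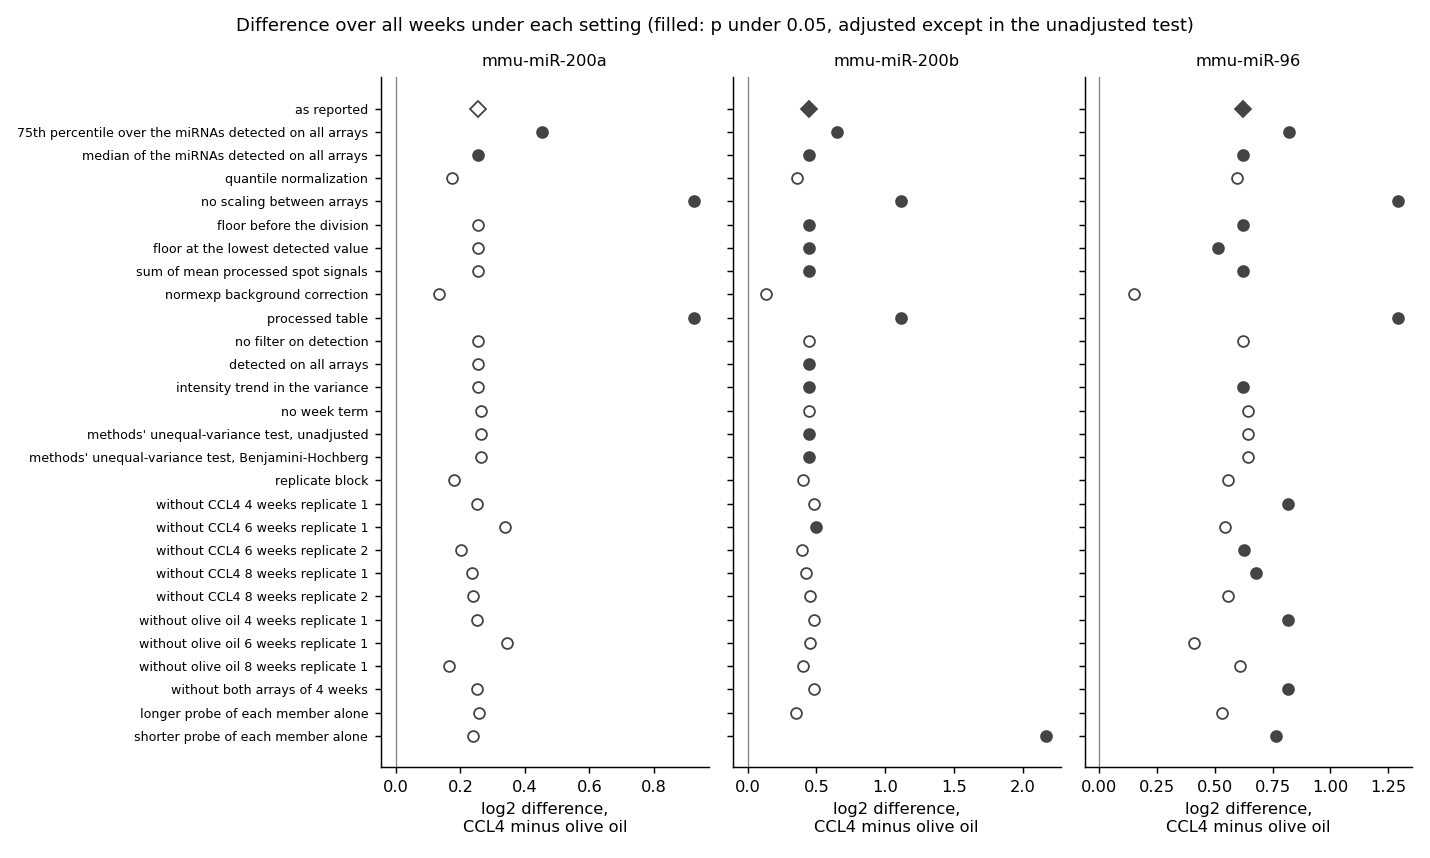
Log2 difference between CCL4 and olive oil over all weeks (horizontal axes) for the 3 miRNAs tested under each setting (rows); the diamond is the value reported and filled symbols have p under 0.05, adjusted except in the unadjusted test. All values lie above 0, from 0.14 to 0.92 for mmu-miR-200a, from 0.14 to 2.17 for mmu-miR-200b and from 0.15 to 1.29 for mmu-miR-96; the value of 2.17 comes from the shorter probe of mmu-miR-200b, which was below 0 on the olive oil array of 6 weeks.

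By week, mmu-miR-200b was higher with CCL4 by 0.36 at 4 weeks, 0.44 at 6 weeks and 0.53 at 8 weeks (SE 0.33, 0.28 and 0.28), and none of these passed the threshold (adjusted p by limma 0.357, 0.204 and 0.414). With the percentile taken over the 113 miRNAs that all arrays detect, mmu-miR-200b passed at 4 and 6 weeks (0.58 and 0.90, adjusted p 0.0276 and 0.0193), and at 6 weeks it also passed without CCL4 6 weeks replicate 1 (0.61, adjusted p 0.0453). For mmu-miR-200a the differences were 0.26, 0.09 and 0.41 with the same errors, and none passed (adjusted p by limma 0.518, 0.801 and 0.551). Under the same other percentile mmu-miR-200a passed at 4 and 6 weeks (0.48 and 0.56, adjusted p 0.0235 and 0.0256). For mmu-miR-96 the difference was 0.09 at 4 weeks (adjusted p by limma 0.823), it was 0.99 at 6 weeks (adjusted p 0.0104), and it was 0.64 at 8 weeks (adjusted p 0.171). The errors and p-values of single weeks rest on the spread within the CCL4 pairs of 6 and 8 weeks, taken as common to all miRNAs. Groups with 1 array, which include all olive oil groups, were assumed to vary like these pairs. The olive oil arrays of 4 and 6 weeks did not detect mmu-miR-96, so its level there is uncertain. Against the lowest detected signal of the olive oil array of 6 weeks, mmu-miR-96 was 1.62-fold higher with CCL4. At 4 weeks, against its own undetected signal, it was 1.07-fold higher. Neither value is a lower bound. Calls are made per probe, and mmu-miR-429 was not called at a summed signal of 12.1 on CCL4 8 weeks replicate 1. Among the 133, 12% were called higher at 4 weeks, 6.02% at 6 weeks and 6.02% at 8 weeks, beside 0, 1 and 0 of these 3. The call of mmu-miR-96 at 6 weeks was lost in 5 of 12 alternatives, namely quantile normalization (adjusted p 0.219), the percentile of the 113 (0.103), no filter on detection (0.476) and leaving out either CCL4 array of 8 weeks (0.0968 for each). At 8 weeks it passed with no scaling (1.24, adjusted p 0.0344) and without either CCL4 array of 6 weeks (0.64, adjusted p 0.0108 for each). A test of whether the treatment difference varied with week called none of the 3 (adjusted p 0.882 for mmu-miR-200a, 0.984 for mmu-miR-200b and 0.540 for mmu-miR-96 by limma), beside 6.02% of the 133, with unadjusted p of 0.734, 0.926 and 0.116. Without CCL4 6 weeks replicate 2 that of mmu-miR-96 passed, with an adjusted p of 0.0319.

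The spread of the spots within a probe was taken from the processed signals. For the longer probe of mmu-miR-200b, the coefficient of variation over the spots of an array was 8.11% to 11.4% with CCL4 and 14.9% to 24.2% with olive oil. For mmu-miR-96 it was 12.1% to 27.6% and 28.6% to 41.9%. For mmu-miR-200a the ranges met, at 10.3% to 18.2% and 15.5% to 18.6%. Single spots well above background were 47 of 50 with CCL4 and 8 of 30 with olive oil for mmu-miR-200b, 43 of 50 and 6 of 30 for mmu-miR-200a, and 28 of 50 and 1 of 30 for mmu-miR-96. By contrast the longer probe of mmu-miR-429 had 2 of 50 and 0 of 30, with a spot variation of 29.6% to 69.1% and 61.8% to 84.8%. Its shorter probe had 1 of 50 and 0 of 30, with 14.3% to 44.8% and 45.8% to 96.7%. In spot variation the contrast holds for the longer probes only. The CCL4 medians of the shorter probes were 30.9% for mmu-miR-429, 37.3% for mmu-miR-200a, 59.9% for mmu-miR-200b and 28.9% for mmu-miR-96. With the local background subtracted from the mean signals instead, the variation was lower and the ranges of CCL4 and olive oil overlapped. They were 2.71% to 5.57% and 5.47% to 7.56% for mmu-miR-200b, 5.06% to 11.9% and 5.30% to 8.45% for mmu-miR-96, and 4.46% to 8.15% and 6.68% to 7.47% for mmu-miR-200a. Undetected members were also low by this measure, with CCL4 medians of the longer probe from 6.94% (mmu-miR-182) to 10.2% (mmu-miR-141). Those of mmu-miR-200b, mmu-miR-96 and mmu-miR-200a were 3.74%, 5.75% and 5.66%. The medians of the detected members were thus below those of the undetected ones. Single arrays overlapped, since the undetected mmu-miR-429 had 2.82% on CCL4 8 weeks replicate 1. A low value on 1 array by this measure therefore does not by itself mark a detected signal.

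Across the 8 arrays the Pearson correlation of mmu-miR-200a with mmu-miR-200b in scaled level was 0.86, and 0.97 within the 5 CCL4 arrays. The correlation of mmu-miR-96 with mmu-miR-200b was 0.72 over the 8 arrays and 0.03 within the 5 CCL4 arrays. These correlations share the array's scaling and brightness and are descriptions. Among the 132 other miRNAs tested, the scaled levels most like mmu-miR-200b were those of mmu-miR-199a-5p (0.985), mmu-miR-199b at 0.974, mmu-let-7e (0.972), mmu-miR-497 (0.959) and mmu-miR-199b* (0.954). Most like mmu-miR-200a were mmu-miR-497 (0.948), mmu-miR-195 (0.937), mmu-miR-199a-5p (0.908), mmu-let-7i (0.884) and mmu-miR-199b (0.879). Most like mmu-miR-96 were mmu-miR-802 (0.885), mmu-miR-34a (0.843), mmu-miR-379 (0.818), mmu-miR-335-5p (0.797) and mmu-miR-199b* (0.780). Of these, mmu-miR-379 and mmu-miR-335-5p were detected on 3 and 4 CCL4 arrays and on 0 olive oil arrays, so their correlations rest partly on undetected values. With Spearman's rho 5, 2 and 4 of the 5 names were kept for mmu-miR-200a, mmu-miR-200b and mmu-miR-96. All 5 named for mmu-miR-200b, and some of those named for mmu-miR-200a and mmu-miR-96, are among the miRNAs that the study picked from these same arrays. The correlations with the named miRNAs pool both treatments, so a shared difference between treatments raises them. Their values within the CCL4 arrays are not given here.

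Markers of other cells in the liver moved in the same arrays. Of 3 other epithelial miRNAs, mmu-miR-205 and mmu-miR-375 were not detected on any array. The other, mmu-miR-203, was lower with CCL4 by 0.61 (SE 0.19, adjusted p = 0.0237 by limma), a direction that turned without scaling (0.06, adjusted p = 0.864). Of 6 miRNAs of stellate and other mesenchymal cells, the collagen-producing cells of fibrosis, 5 were tested and 4 were called higher, beside 18 of the 133 (13.5%). These were mmu-miR-199a-5p (0.55, adjusted p = 0.0209 by limma), mmu-miR-199b (0.74, adjusted p = 0.0118), mmu-miR-199b* (1.46, adjusted p = 2.153e-04) and mmu-miR-214 (1.00, adjusted p = 0.0118, detected on 1 of 3 olive oil arrays). All but mmu-miR-214 are among the miRNAs that the study picked from these same arrays. The other one tested, mmu-miR-143, was not called (0.34, adjusted p = 0.122), and mmu-miR-145 was detected on no array. The summed scaled signal of the 6 was 30.6 to 50.3 with CCL4 and 22.4 to 29.4 with olive oil. Of 4 hepatocyte miRNAs, 3 were called lower, beside 47 of the 133. The other, mmu-miR-802, also picked by the study, was called higher (0.68, adjusted p = 0.0232 by limma). The summed scaled signal of the 4 was 2331 to 4125 with CCL4 against 5263 to 5884 with olive oil, and without scaling none was called lower. Of 3 tested leukocyte, 2 endothelial and 3 erythroid miRNAs none was called, while without scaling mmu-miR-223 of neutrophils was called higher (0.92, adjusted p = 0.0253 by limma). The median difference was -0.63 for the hepatocyte list and 0.74 for the mesenchymal list, beside -0.32 for the 133. The part of these cell markers in the differences of mmu-miR-200b and mmu-miR-96 was not tested.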

How the data were processed

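Liver miRNA was measured on 8 Agilent mouse miRNA arrays, from 1 slide and 1 scan. The deposited intensity values came, per the file headers, from Feature Extraction 10.5.1.1. It removed the background spot by spot and added up the probes of a miRNA, and arrays were not scaled against each other; the study's methods name another version and scanner. The deposited log2 table equalled the log2 of these signals, with those under 1 set to 1, to within 1.107e-06 over 4536 values. Detection calls are the software's.

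For each array, the 75th percentile over its 567 mouse miRNAs served as divisor, after which values were floored at 0.01 and log2 was taken. The study's methods set the floor first, which was run as an alternative. The 133 miRNAs detected on at least 3 arrays were tested with limma 3.58.1 in R 4.3.3, with week as a factor (4 residual degrees of freedom) or with a mean per group (2 residual degrees of freedom, where a spread common to all miRNAs was estimated), and with Benjamini-Hochberg adjustment over all 133 at 0.05. The number of arrays limits the precision. Alternatives covered the scaling, the floor, the background, the filter, the test, each probe alone and leaving out each array. Without both arrays of 4 weeks was added after seeing the data.

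The 8 miRNAs and the marker lists were chosen with earlier results of these data known. Named besides them are their opposite strands and, for each of the 3 tested, the 5 tested miRNAs with the highest correlation. The array names give no arm. In each locus, the RefSeq arms whose starts all lay at the same distance from the probe starts were taken, which fixed a single choice. The human arrays of the study were not analysed here.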

Additional observations from a re-analysis of the deposited data

How the results depend on the processing

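Each difference over all weeks of mmu-miR-200a, mmu-miR-200b and mmu-miR-96 stayed above 0 in all the alternatives run, 27, 27 and 26 in number. Some alternatives, such as dropping the filter on detection, change only the test and cannot change the difference. Others repeat one another. With week as a factor, leaving out either array of 4 weeks or both gave the same values, and the floor before the division gave the values reported. The alternatives counted are thus not all distinct. The counts of kept directions are therefore no measure of support. The side of the threshold changed in 4, 14 and 12 of the alternatives. For mmu-miR-200a the threshold was passed with the percentile taken over the 113 miRNAs that all arrays detect (0.45, adjusted p = 0.0192), with the median of the 113 as scale (0.26), with no scaling (0.92) and in the processed table (0.92). For mmu-miR-200b it was missed with quantile normalization (0.36), normexp (0.14), no filter on detection (0.45), no week term (0.44), the longer probe alone (0.35) and without both arrays of 4 weeks (0.48, chosen after seeing the data). For mmu-miR-96 it was missed with quantile normalization (0.60), normexp (0.15), no filter (0.62), no week term (0.64), the methods' unequal-variance test both unadjusted and adjusted (0.64) and the longer probe alone (0.53). With single arrays left out the differences were 0.17 to 0.35, 0.40 to 0.50 and 0.41 to 0.82. The labels do not say whether the replicate numbers of the CCL4 arrays mark a batch. Deviations from the group means at 6 and 8 weeks correlated at 0.05 across miRNAs, which cannot settle it. With the replicate block the differences were 0.18, 0.40 and 0.56, with mmu-miR-200b and mmu-miR-96 no longer past the threshold (adjusted p by limma 0.0680 and 0.0526). The exact permutation test gave 0.47 (p = 0.0179) for mmu-miR-200a with the percentile of the 113 and 0.64 (p = 0.0893) for mmu-miR-96 with quantile normalization. At single weeks the sign turned for mmu-miR-96 at 4 weeks with quantile normalization (-0.093) and for mmu-miR-200a at 6 weeks with the replicate block (-0.017) and without CCL4 6 weeks replicate 2 (-0.13; 0.32 without replicate 1). By the summed signal mmu-miR-429 was detected on 2 arrays, mmu-miR-200a on 7 and mmu-miR-200b on 6. Of the 133, 18 were called higher and 47 lower; the counts were 34 and 0 with no scaling, 45 and 0 in the processed table, 11 and 0 with normexp, 5 and 0 with no filter (567 tested), 11 and 16 with no week term, 10 and 23 with the methods' test adjusted, 21 and 10 with the percentile of the 113, 12 and 18 with quantile normalization, 20 and 69 with the median of the 113, 8 to 14 and 5 to 60 with single arrays left out, and 7 lower without both arrays of 4 weeks. At single weeks, those called higher were 17 at 6 weeks and 1 at 8 weeks with the percentile of the 113, 15 at 8 weeks with no scaling, 1 and 0 at 6 and 8 weeks with no filter, and 12 to 24, 3 to 18 and 3 to 16 at 4, 6 and 8 weeks with single arrays left out. The interaction was called for 13 miRNAs with quantile normalization, 0 with the percentile of the 113 and 6 to 31 with single arrays left out. The cause of these changes was not tested. The summed signals of mmu-miR-200a, mmu-miR-200b and mmu-miR-96 on olive oil arrays lay between 1.74 and 4.43 errors. This limits what these arrays can show for them.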
